A study of Cucumis melo with 30 samples.

Results

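Read counts of CmAPRR2 and CmKFB, a pair of melon genes known for their part in fruit rind colour, were followed through fruit growth in oriental melon (Cucumis melo), which has a thin skin. They are 2 of the 27427 genes in the deposited table and were chosen by identifier, MELO3C003375 for CmAPRR2 and MELO3C011980 for CmKFB. The names come from published work on melon rind pigments. The table itself holds identifiers only, so the pairing of names and identifiers could not be checked against a sequence or a position here. The fruit came from the cultivars labelled HDB-OF and YMR-WF, called HDB and YMR below. It was sampled 5, 15, 25, 30 and 35 days after anthesis, when the flower opens. Each of the 10 combinations had 3 libraries, 30 in all. No treatment is named for any group. The labels give the tissue as fruit and do not say whether rind, flesh or both were taken. A whole-tissue RNA level does not separate fewer cells of a type from less RNA per cell, and this holds for every value below.

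CmAPRR2 is a pseudo-response regulator-like transcription factor. In melon, variants of the gene go with how much pigment the rind builds up, chlorophyll in the young fruit and carotenoids or flavonoids in the mature fruit, and related genes act on fruit greenness in cucumber, pepper and tomato. CmKFB is a Kelch-repeat F-box protein, a class that marks chosen proteins for breakdown. In melon it holds down the flavonoid pathway, and rinds with little of its transcript turn yellow with naringenin chalcone. In Arabidopsis, proteins of this class direct the breakdown of enzymes that start phenylpropanoid and flavonoid synthesis.

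Total counts lay between 17299247 and 23261097 per library. The unit of level is CPM, read counts per 1000000 in a library whose size was scaled by TMM, a method that corrects for composition. CPM does not divide by gene length, and no lengths were available, so no gene is called higher or lower than the other, and where a ratio of their counts is given, only its difference between groups is read. Both genes passed the low-count filter among 18426 tested genes. CmKFB did so through libraries of days 5 and 15 alone, the only ones in which it had at least 10 counts (8 of 30). Differences are given as log2 values with standard errors from edgeR's quasi-likelihood test across all tested genes, and a call means an edgeR adjusted p under 0.05.

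CmAPRR2 started low in HDB and stood far higher from day 25 on. At day 5 the HDB libraries had 38.0, 46.5 and 71.6 CPM, the lowest values of the gene in the whole series. At day 15 they had 433, 662 and 1433 CPM, in replicates 2, 1 and 3, so that the group spanned 3.31-fold. At day 25 the values were 3456, 3659 and 3943 CPM, at day 30 they were 2474, 2883 and 2889, and at day 35 they were 3257, 3383 and 3409. From day 25 on, each HDB library thus held the gene at 2474 CPM or more, and it took 0.257% to 0.381% of all counts there.

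In YMR the gene moved within a much narrower band. At day 5 the YMR libraries had 105, 179 and 231 CPM, all above the 3 HDB libraries of that day. At day 15 they had 264, 270 and 344 CPM and at day 25 they had 170, 203 and 225. Day 30 brought 618, 674 and 694 CPM, and day 35 brought 392, 587 and 645. The highest YMR library of any day, at 694 CPM, lay 3.56-fold under the lowest HDB library of days 25 to 35. Between the highest and the lowest group mean there was a 3.85-fold difference in YMR, while in HDB the mean of day 25 was 70.9 times that of day 5.

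**Figure D1:**
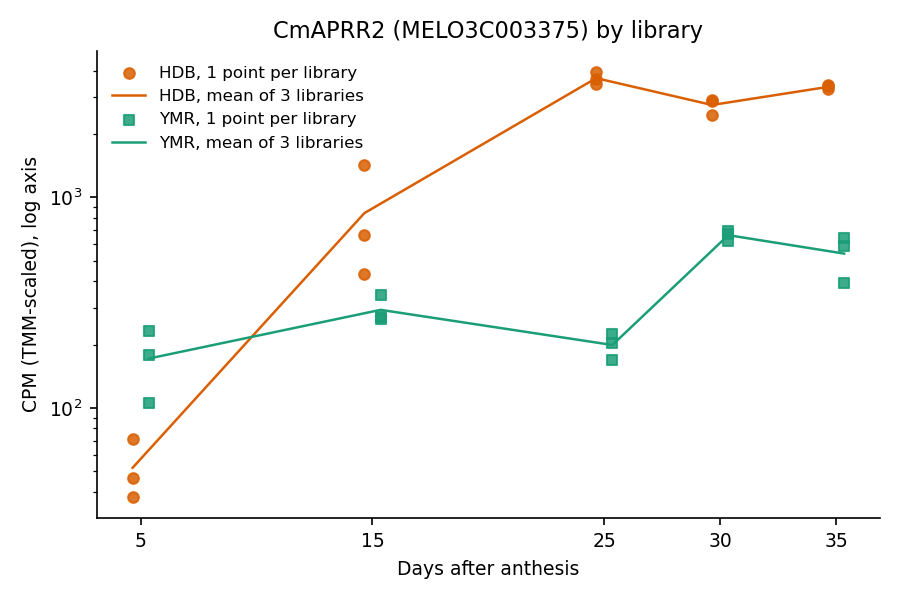
CmAPRR2 (MELO3C003375) in CPM on a log axis against days after anthesis, with 1 point per library (orange circles HDB, green squares YMR) and lines through the means of 3 libraries. HDB lies below YMR at day 5 and between 2474 and 3943 CPM from day 25 on, while no YMR library exceeds 694 CPM.

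Ordered by mean, the groups ran from HDB day 25 (3686 ± 245 CPM, SD, n = 3) through HDB day 35 (3350 ± 81.1) and HDB day 30 (2749 ± 238) to HDB day 15 (843 ± 524). Below them came YMR day 30 (662 ± 39.4), YMR day 35 (541 ± 133), YMR day 15 (293 ± 44.5), YMR day 25 (199 ± 27.6), YMR day 5 (172 ± 63.2) and HDB day 5 (52.0 ± 17.5). Values of neighbours in this order overlapped for HDB day 15 and YMR day 30, for YMR days 30 and 35, and for YMR days 25 and 5. The other neighbours did not overlap, although neither step between the 3 late HDB groups, day 25 to day 30 and day 30 to day 35, was called. HDB days 25 and 35, neighbours in this order, were not tested against each other.

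The first comparison was between the cultivars at each day, and CmAPRR2 was called at all 5, with 1 change of sign. At day 5 it was higher in YMR by 1.72 log2 units (SE 0.32, edgeR adjusted p = 0.00038), which is 3.30-fold. At day 15 YMR minus HDB came to -1.53 (SE 0.31, edgeR adjusted p = 0.00045), 2.88-fold lower in YMR. It was widest at day 25, at -4.21 (SE 0.35, edgeR adjusted p = 7.1e-10) or 18.5-fold. At day 30 it was -2.05 (SE 0.32, edgeR adjusted p = 2.2e-05) and at day 35 it was -2.63 (SE 0.32, edgeR adjusted p = 4.6e-07), 4.15-fold and 6.19-fold lower in YMR. Averaged over the days, with equal weight for each, the difference was -1.74 (SE 0.14, edgeR adjusted p = 3.1e-10).

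Calls were frequent among all genes, with 21.8% of those tested called at day 5, 40.9% at day 15, 48.3% at day 25, 33.4% at day 30, 47.7% at day 35 and 51.0% for the mean over days. A call by itself is therefore common here, and the size of the difference says more. At day 25 a difference as low as that of CmAPRR2 or lower was found for 179 of 18426 genes, the gene itself included, and at day 5 one as high or higher for 320. At days 15, 30 and 35 the gene ranked less far out, with 901, 731 and 468 genes as low or lower.

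The day 15 difference depended on the libraries in the fit. With only the 6 libraries of that day the log2 difference was -1.50 but the edgeR adjusted p was 0.055, the highest of its alternatives, which began at 4.1e-06. Without replicate 3 of HDB day 15, the library at 1433 CPM, it was -0.90 (edgeR adjusted p = 0.0078). The first principal component of all tested genes held 60.5% of the variance. On it that replicate stood at -114.0, and replicates 1 and 2 stood at -92.1 and -102.7. The day 5 libraries of HDB stood between -208.6 and -201.1, and replicate 3 was the nearest of its group to them. The axis rose with day but was no strict scale of age, since YMR stood at 114.0 to 122.4 on day 30 and at 104.1 to 114.5 on day 35. A link between this position and the high CmAPRR2 of replicate 3 was not tested.

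The second comparison was over time. In HDB, CmAPRR2 rose by 4.02 log2 units from day 5 to day 15 (SE 0.35, edgeR adjusted p = 1.4e-09) and by 2.13 from day 15 to day 25 (SE 0.32, edgeR adjusted p = 2.5e-06), which is 16.2-fold and then 4.37-fold. Without replicate 3 of HDB day 15 the split between these steps shifted to 3.39 and 2.75, both still called. After day 25 no step was called. The log2 change was -0.42 from day 25 to day 30 (95% interval -1.06 to 0.21, edgeR adjusted p = 0.28) and 0.29 from day 30 to day 35 (95% interval -0.35 to 0.92, edgeR adjusted p = 0.53). The day 25 and day 30 libraries did not overlap, and with only those 6 libraries in the fit the fall of 0.37 was called (edgeR adjusted p = 0.01, the lowest of alternatives that reached 0.47). From day 5 to day 35 the gene rose by 6.01 (SE 0.38, edgeR adjusted p = 7.5e-13), 64.4-fold, a rise that 205 of 18426 genes equalled or passed, the gene itself included.

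In YMR the largest rise of a single step came later. From day 25 to day 30 CmAPRR2 rose by 1.73 (SE 0.31, edgeR adjusted p = 9.9e-05), or 3.32-fold, and 592 of the tested genes rose as much or more. The rise from day 5 to day 15 was 0.77 (SE 0.31, edgeR adjusted p = 0.036) and did not hold under every alternative. It missed the threshold with RLE size factors, with total counts alone, with only the 6 compared libraries (edgeR adjusted p = 0.051, 0.06 and 0.057) and without replicate 2 or 3 of day 5 or replicate 3 of day 15 (0.19, 0.065 and 0.12), among alternatives that ran from 0.014 to 0.19. From day 15 to day 25 the log2 change was -0.55 (95% interval -1.19 to 0.08, edgeR adjusted p = 0.11). It became a call with only the compared libraries (-0.57, edgeR adjusted p = 0.019) and under total counts alone (-1.15, edgeR adjusted p = 0.0025), a scaling that also moved the median log2 change of all genes over this step from -0.07 to -0.66; the highest adjusted p of the alternatives was 0.29. The last step, -0.29 from day 30 to day 35, was not called (95% interval -0.92 to 0.34, edgeR adjusted p = 0.52). Over the whole span YMR rose by 1.66 (SE 0.31, edgeR adjusted p = 4.8e-05), 3.15-fold.

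Beside these calls, 59.4% of tested genes were called in HDB from day 5 to day 15, 71.0% from day 15 to day 25, 41.8% from day 25 to day 30, 27.5% from day 30 to day 35 and 79.3% over the whole span. The same shares in YMR were 57.4%, 67.4%, 45.0%, 30.6% and 75.4%. A change between day 5 and day 35 was thus the rule among genes in both cultivars, and what set CmAPRR2 in HDB near the end of the range was its size.

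The third comparison set the changes of the cultivars against each other. From day 5 to day 15 the change in YMR minus that in HDB was -3.25 (SE 0.44, edgeR adjusted p = 1.4e-05), and from day 15 to day 25 it was -2.68 (SE 0.44, edgeR adjusted p = 3.9e-05). From day 25 to day 30 the sign turned, to 2.16 (SE 0.44, edgeR adjusted p = 0.00068), when YMR rose and no change was called in HDB. No difference was called from day 30 to day 35 (-0.58, 95% interval -1.47 to 0.32, edgeR adjusted p = 0.33). Over the whole span the difference was -4.35 (SE 0.45, edgeR adjusted p = 1.3e-07), as low as or lower than which stood 167 of 18426 genes, the gene itself included. Without replicate 3 of HDB day 15 the differences over the first and second steps became -2.63 and -3.31. The joint test of all 4 interaction terms gave an edgeR adjusted p of 9.4e-09. Shares of tested genes called were 34.8%, 41.4%, 30.0% and 33.1% for the steps in order, 36.0% for the span and 74.4% for the joint test.

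**Figure D2:**
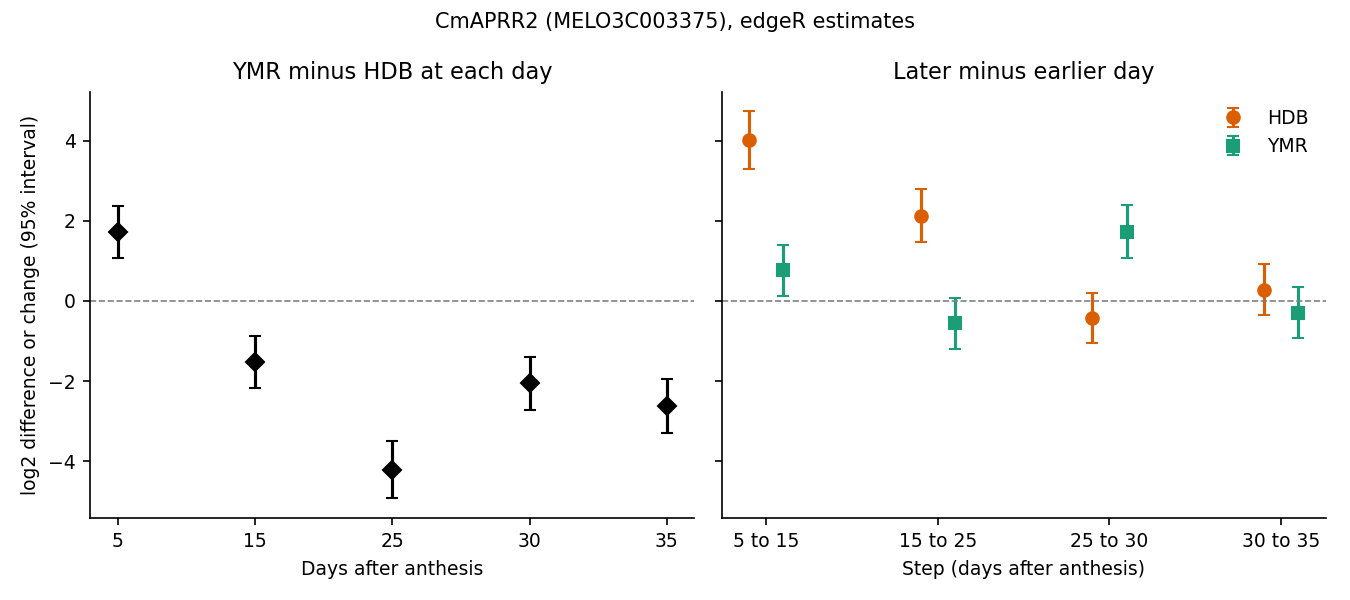
Log2 differences of CmAPRR2 with 95% intervals from edgeR, on the left YMR minus HDB at each day and on the right the later minus the earlier day for each step in HDB (orange circles) and YMR (green squares); the dashed line marks no difference. The cultivar difference goes from 1.72 at day 5 to -4.21 at day 25, and the called rises are those of HDB over the first and second steps and of YMR from day 5 to day 15 (0.77, not held under every alternative) and from day 25 to day 30.

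CmKFB was read in young fruit and almost not at all in older fruit. Of its 275 counts over the 30 libraries, 96.7% came from days 5 and 15, and the 18 libraries of days 25 to 35 held 9 counts between them. At day 5 the HDB replicates 1, 2 and 3 had 15, 20 and 39 counts (0.696, 0.945 and 1.94 CPM) and the YMR replicates had 24, 11 and 12 (1.04, 0.422 and 0.524 CPM). The cultivars overlapped at that day.

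At day 15 the HDB replicates 1, 2 and 3 had 35, 9 and 89 counts, or 1.63, 0.332 and 3.53 CPM. The YMR replicates had 3, 5 and 4 counts, or 0.139, 0.230 and 0.172 CPM. All HDB libraries were above all YMR libraries, although the HDB group itself spanned 10.6-fold and replicate 3 held 66.9% of its counts. At day 25 the HDB libraries had 4, 1 and 0 counts, and at day 35 they had 0, 0 and 1, while YMR had none at day 25 and 0, 1 and 2 at day 35. No library of day 30 had a count in either cultivar, and 3 counts over a group, the limit that a count of 0 allows, would be 0.0541 CPM in HDB and 0.0618 in YMR at that day. These limits cover counting error only.

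**Figure D3:**
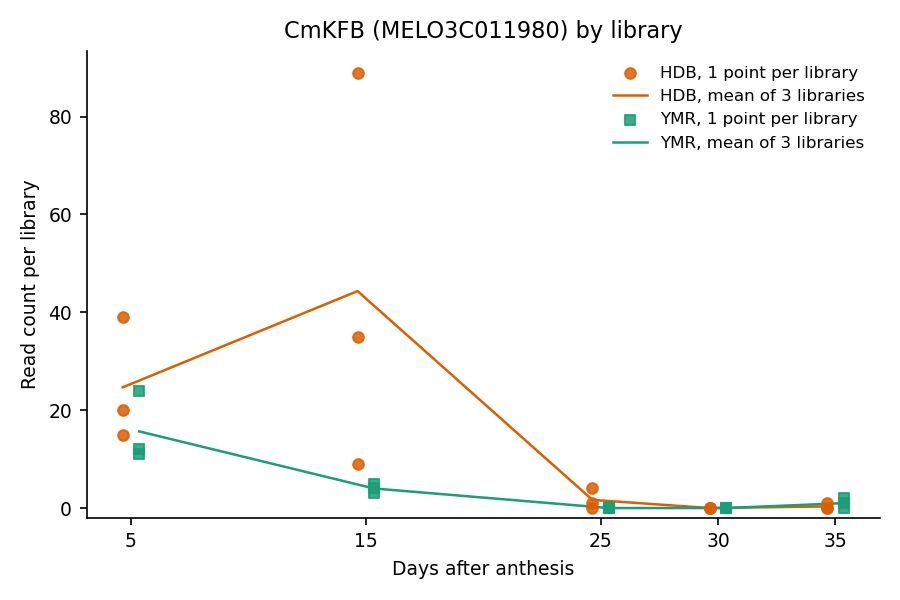
Read counts of CmKFB (MELO3C011980) per library against days after anthesis, with 1 point per library (orange circles HDB, green squares YMR) and lines through the means of 3 libraries. Counts reach 89 in 1 HDB library of day 15, stay between 3 and 5 in YMR at that day and do not exceed 4 in any library from day 25 on.

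By mean level CmKFB was highest in HDB at day 15 (1.83 ± 1.61 CPM, SD, n = 3), followed by HDB day 5 (1.19 ± 0.660), YMR day 5 (0.662 ± 0.330) and YMR day 15 (0.180 ± 0.0465). HDB day 25 stood at 0.0823 ± 0.106 CPM and the other groups at 0.0530 or less. Only YMR day 5 and YMR day 15 were neighbours in this order whose values did not overlap.

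The single cultivar difference of CmKFB that was called lay at day 15, at -3.30 on the log2 scale, YMR minus HDB (SE 0.82, edgeR adjusted p = 0.0035), or 9.84-fold lower in YMR. At that day 40.9% of tested genes were called, and 264 of 18426 had a difference as low or lower, the gene itself included. Without replicate 3 of HDB day 15 the CmKFB difference was -2.38. Its edgeR adjusted p of 0.028 was the highest of the alternatives that gave a value, which began at 0.00069. A fit to the libraries of day 15 alone gave no value, because CmKFB failed the filter there. At day 5 the difference of -0.85 was not called (95% interval -2.35 to 0.65, edgeR adjusted p = 0.43). At day 25 there were 5 counts against none, with no call (edgeR adjusted p = 0.18). With the empty group set at 3 counts in all, YMR would be 1.18-fold lower. The two-sided 95% limit of the empty group, 0.0829 CPM, is above the 0.0794 CPM that the 5 counts give, so no minimum fold is read. At days 30 and 35 both cultivars were at or under 3 counts and no fold is given, and for the same reason none is given for the mean over days.

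Over time, CmKFB fell in HDB from day 15 to day 25, from 133 counts to 5, or by -4.41 log2 units (SE 0.92, edgeR adjusted p = 0.00032). The size of this fall rested on single libraries, and it was -3.49 without replicate 3 of day 15. Without replicate 1 of day 25, which held 4 of the 5 counts, it was still called, with a fitted value of -5.96 that rests on 1 remaining count and is no measured fold. The step from day 5 to day 15 in HDB was not called (0.62, 95% interval -0.81 to 2.04, edgeR adjusted p = 0.45), and without replicate 3 of day 15 its sign turned to -0.30. From day 25 to day 30, 5 counts against none gave an edgeR adjusted p of 0.16. From day 5 to day 35 HDB went from 74 counts to 1, a ratio of 66.4, with counting error allowing 11.6 to 2659 (exact 95% interval; edgeR adjusted p = 0.00029).

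In YMR the log2 change from day 5 to day 15, 47 counts against 12, was -1.84 (95% interval -3.61 to -0.06, edgeR adjusted p = 0.072). With only those 6 libraries in the fit it was -1.83 and was called (edgeR adjusted p = 0.032, the lowest of alternatives that reached 0.24). From day 15 to day 25 the 12 counts went to none. That is 2.67-fold lower with the empty group set at 3 counts and the 12 taken as exact (edgeR adjusted p = 0.041). That call was lost without replicate 2 or 3 of day 15 or any 1 library of day 25, with edgeR adjusted p between 0.057 and 0.085, among alternatives that began at 0.017. From day 5 to day 35 YMR went from 47 counts to 3, a ratio of 11.5, with counting error allowing 3.71 to 57.8 (exact 95% interval; edgeR adjusted p = 0.0072). As given above, 79.3% and 75.4% of tested genes were called over this span, so a call of CmKFB in both cultivars was no rare event.

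Whether the fall of CmKFB differed between the cultivars could be read for few steps. From day 5 to day 15 the change in YMR minus that in HDB was -2.45 (95% interval -4.73 to -0.17), which did not pass after adjustment (edgeR adjusted p = 0.088) but did without replicate 2 of HDB day 15, at -2.95 (edgeR adjusted p = 0.026; the alternatives reached 0.27). The joint test of the interaction gave an edgeR adjusted p of 0.13, and 0.032 without the same library. From day 15 to day 25 and over the whole span the edgeR adjusted p was 0.67 and 0.42, with counts at or near 0 in the older fruit.

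In both cultivars CmAPRR2 had its lowest mean at day 5, and CmKFB was all but gone after day 15. Within a library, the ratio of their counts does not depend on how the library is scaled. With a number added to each count this no longer holds strictly. In a library without a CmKFB count the ratio then varies with the total counts of the library. The log2 ratio of CmKFB to CmAPRR2 counts, with 0.5 added to each, stood at -5.50 ± 1.19 (SD, n = 3) for HDB and -8.01 ± 0.308 for YMR on day 5. On day 15 it stood at -9.19 ± 0.935 for HDB and -10.5 ± 0.424 for YMR. The planned test took all 5 days. Its mean log2 difference, YMR minus HDB, was 1.02 (exact permutation test within days, two-sided p = 0.093), where the later days rest on the added 0.5 and on the level of CmAPRR2. With 5 added in place of 0.5 it was 1.31 (p = 0.022 by the same exact test). Days 5 and 15 alone were an alternative, a set that depends on where CmKFB had counts. There every library had a count of both genes and nothing was added. The direction was reversed, with the ratio lower in YMR by a mean log2 difference of -1.99 (exact permutation test within days, two-sided p = 0.01).

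Whether the genes moved together between libraries of a group could be read mainly at days 5 and 15. Over all 30 libraries, deviations from the group means of log2 CPM gave Pearson's r = 0.483 and Spearman's rho = 0.106 (permutation test within groups, two-sided p = 0.25 and 0.67). In 9 of these libraries, those of HDB day 30 and YMR days 25 and 30, CmKFB had no count and its deviation is 0, and the other late groups held 1 to 5 counts, so the later days add almost nothing to this test. Without the 2 libraries farthest from the median of CmAPRR2, r was -0.0305, so the relation rested on those, replicates 2 and 3 of HDB day 15. These are the libraries with the lowest and the highest value of both genes in that group. Over the 12 libraries of days 5 and 15, a set chosen after the values were seen, r was 0.602 and rho 0.294 (permutation test within groups, p = 0.24 and 0.51), and the genes deviated in the same direction in 6 libraries and in opposite directions in the other 6. This was 1 relation under 4 settings, so no adjustment over relations was made.

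**Figure D4:**
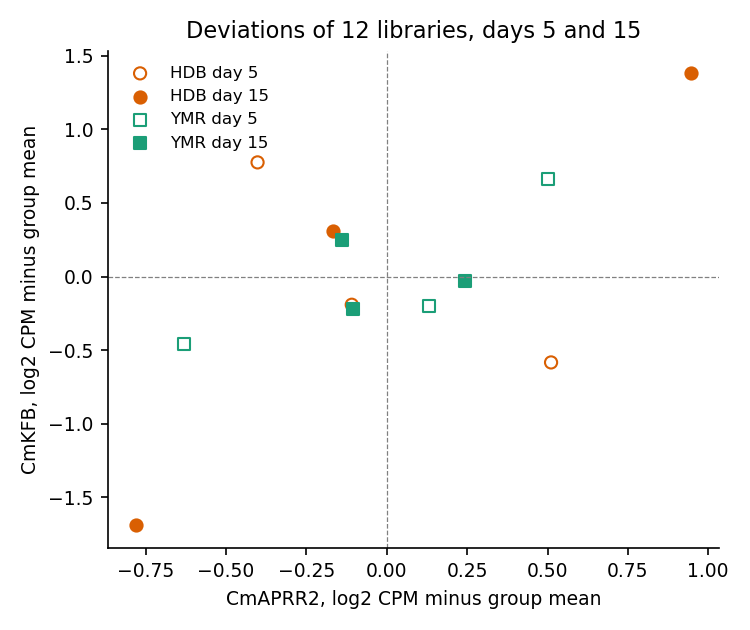
Deviation of CmKFB against that of CmAPRR2 from the group mean of log2 CPM, for the 12 libraries of days 5 and 15 (circles HDB, squares YMR; open day 5, filled day 15). Replicates 2 and 3 of HDB day 15 lie at the lower left and upper right, and the remaining libraries show no common direction.

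The genes whose profile was most like that of CmAPRR2 were found by the correlation of log2 CPM over the 10 group means, among 13467 other genes with a mean of at least 10 CPM in some group. In order they were MELO3C001656 (r = 0.984), MELO3C026567 (0.983), MELO3C025487 (0.975), MELO3C016226 (0.957) and MELO3C008113 (0.954), with the next gene at 0.951. The groups share days and cultivars, so these values describe likeness and carry no test. MELO3C001656 covered a wider range than CmAPRR2: its HDB means were 0.576 CPM for day 5, 127 for day 25 and 125 for day 35, and its YMR means were 2.38, 5.03 and 7.05 for the same days, with 17.0 for day 30. The other genes covered a narrower range and parted from CmAPRR2 in places. MELO3C016226 had means of 47.3 and 306 CPM for days 5 and 25 in HDB, but in YMR its mean was 86.8 for day 15 and 96.1 for day 25, where that of CmAPRR2 was lower at day 25. The YMR means of MELO3C025487 were 8.85 CPM for day 25, 9.05 for day 30 and, as its highest, 11.6 for day 35. MELO3C008113 had its HDB maximum at day 35, with 19.6 CPM. Of the 5 genes, 3 were also among the 5 most alike by rank correlation and 3 by correlation over the 30 libraries. In all, 68 genes had r over 0.9 with CmAPRR2 and 88 had r under -0.9.

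**Figure D5:**
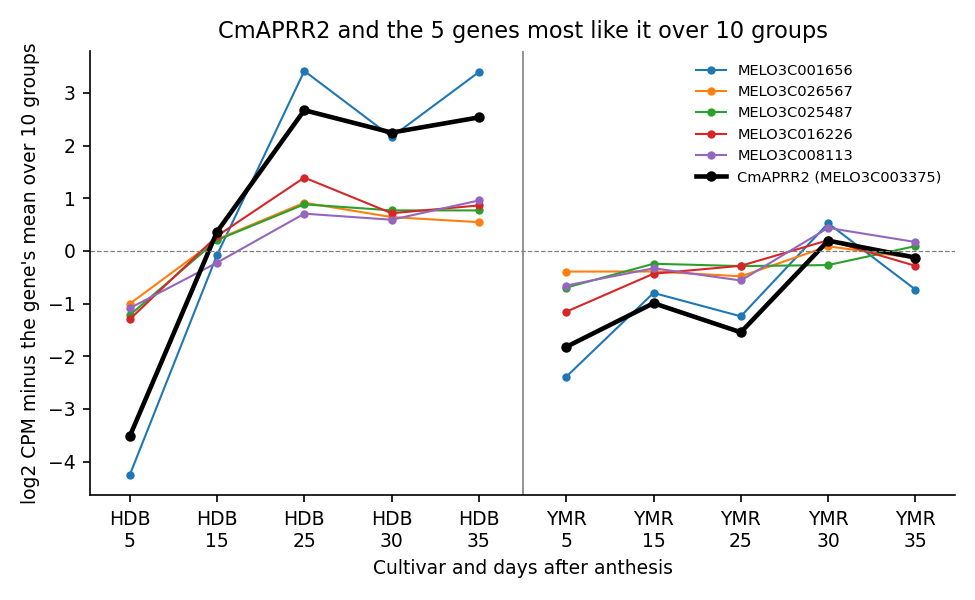
Group means of log2 CPM of CmAPRR2 (black) and of the 5 genes most like it, each minus its own mean over the 10 groups, for HDB on the left and YMR on the right by days after anthesis. All have a higher mean at day 25 than at day 5 in HDB, and MELO3C001656 spans a wider range than CmAPRR2 and the others a narrower one.

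For CmKFB, likeness is weakly determined, because 6 of the 10 group means lie at or near 0 counts. The highest correlations over the 10 groups were those of MELO3C024498 (r = 0.971), MELO3C020049 (0.970), MELO3C004866 (0.968), MELO3C025336 (0.968) and MELO3C019989 (0.963). MELO3C024498 had HDB means of 85.5 and 31.4 CPM for days 5 and 15, YMR means of 9.75 and 2.51, and 0.486 or less in every later group. Its HDB mean was thus lower at day 15 than at day 5, unlike that of CmKFB. MELO3C019989 had 0 CPM in every later group. The others kept clear levels from day 25 on, with means of 32.2 to 40.3 CPM for MELO3C020049, 43.7 to 81.9 for MELO3C004866 and 61.2 to 84.4 for MELO3C025336. None of the 5 was among the 5 most alike by rank correlation and 1 was by correlation over the 30 libraries. As many as 376 of 13468 genes had r over 0.9 with CmKFB. Over the same 10 groups the correlation between CmAPRR2 and CmKFB was -0.549.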

How the data were processed

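Frozen fruit was extracted with Trizol and made into Illumina cDNA libraries, per the labels' protocols. HISAT2 and HTSeq are named in the submitters' processing notes. No source used here gives the genome build, annotation, strand setting or counting options. The authors deposited raw read counts per gene, whole numbers in 1 column per library, and all 30 columns were used. Reads shared with near-identical or antisense genes could not be recognised. Of the 27427 identifiers, 0 matched a table of 28628 melon genes from the assembly USDA_Cmelo_AY_1.0, so no sequence, position or product name is given and no list of pathway genes could be applied.

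The members and lists were chosen with earlier results of these data known. Columns were matched to samples by title, and groups were taken from cultivar and day. Nothing in the labels says that libraries of a group are separate fruit, so the spread behind the p-values may be technical. None of the 30 replicate pairs was identical, and their chi-square per degree of freedom was at least 7.35 (over genes with 20 or more counts in the pair). No batch is given.

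Genes were kept by filterByExpr (minimum count 10, minimum total 15), library sizes were scaled by TMM, and 1 mean per group was fitted to all 30 libraries in edgeR 4.0.16 (R 4.3.3, limma 3.58.1) with robust quasi-likelihood F tests, two-sided, with Benjamini-Hochberg adjustment over all tested genes in each comparison. The common biological coefficient of variation was 19.1%. Standard errors are the absolute log2 change over the square root of F, and 95% intervals use the test's degrees of freedom. The fold against a group with no count sets that group at 3 counts in all. It takes the counts of the other group as exact, so it is no strict bound. Ratios against 1 to 3 counts have exact conditional binomial intervals. Log2 CPM values used a prior count of 2. The correlation within groups used 100000 permutations. The edgeR test was tried on simulated counts for the day 25 cultivar comparison only. Changes were set there in genes above the level of CmKFB. Low counts, interactions, the ratio and the correlation were not covered. The genes named beside the members are the 5 with the highest correlation over group means for each member.

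Alternatives were RLE size factors, total counts alone, DESeq2 1.42.0, a block for the replicate number, a fit without the low-count filter, a fit to the compared groups alone, and each library left out in turn. For the ratio they were another offset, days 5 and 15 alone with no offset, paired differences by replicate number, and each library left out in turn. For the correlation they were another scaling, another prior count and, added after the values were seen, days 5 and 15 alone.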

Additional observations from a re-analysis of the deposited data

Results flagged for a closer look

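The change of CmAPRR2 over time differed between the cultivars by the test of the difference itself. The change in YMR minus that in HDB was -3.25 on the log2 scale from day 5 to day 15, -2.68 from day 15 to day 25, 2.16 from day 25 to day 30 and -4.35 from day 5 to day 35 (edgeR adjusted p = 1.4e-05, 3.9e-05, 0.00068 and 1.3e-07). All 4 kept their sign and their call under the 18 alternatives run for each. Groups of 3 libraries are too small for a test of single outlying libraries.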

How the results depend on the processing

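Of 22 results of CmAPRR2, 18 kept direction and side of the threshold under every alternative that gave a value, and of 14 of CmKFB, 8 did (520 of 542 alternatives in all). A result that was not called and stayed so counts as kept. For some CmKFB results, kept ones among them, the fit to the compared groups alone gave no value, so they were not tried under it. For CmAPRR2 the exceptions were the day 5 to day 15 rise in YMR, no longer called with RLE size factors (0.72), total counts alone (0.70) and only the compared groups (0.78), and between 0.51 and 1.04 without single libraries; the YMR change from day 15 to day 25, called under total counts alone (-1.15) and with only the compared groups (-0.57); the HDB change from day 25 to day 30, called with only the compared groups (-0.37); and the day 15 cultivar difference, not called with only the compared groups (-1.50). For CmKFB they were the YMR change from day 5 to day 15, called with only the compared groups (-1.83), the YMR fall from day 15 to day 25 (fitted values, no bounds, between -5.03 and -4.68 without single libraries), the HDB change from day 5 to day 15 (-0.30 to 1.15 without single libraries), the difference of the change from day 5 to day 15 (-2.99 to -1.53) and from day 15 to day 25 (-1.39 to 1.07, with 0.04 without replicate 2 of HDB day 15, and 0.63 with DESeq2), and the joint interaction (adjusted p 0.032 to 0.27). The main fit used 1 spread per gene over all 10 groups. A fit to the compared groups alone takes the spread from those libraries only and has fewer degrees of freedom. Calls were both lost and gained with it, and the cause was not tested. The ratio of the genes, 1.02 over all days, was 1.31 with an offset of 5 and -1.99 over days 5 and 15.

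Called values that moved over 1.5-fold without 1 library were those given with the results and the falls of CmKFB from day 5 to day 35. Replicate 3 of day 35 held the only count of HDB at that day and 2 of the 3 counts of YMR, so without it the size of the fall cannot be read. The calls held without it (edgeR adjusted p = 0.00099 in HDB, where alternatives ran from 7.5e-05 to 0.0026, and 0.014 in YMR, where they ran from 0.0028 to 0.03). With only the compared groups, 7 comparisons of CmKFB gave no value because the gene failed the filter, and the tally above leaves that alternative out for them.

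With the replicate number as a block, no call of either gene changed (the day 25 difference of CmAPRR2 was -4.21). Equal numbers gave no clear sign of pairing: correlations of deviations lay between -0.27 and 0.31, and in 0 of 15 pairs of groups were all over 0.1. With 3 libraries per group this cannot show whether equal numbers share a fruit or a batch, and the labels do not say. Pairing by replicate number cannot move the mean ratio difference with 3 libraries in every group, so it stayed at 1.02. Only its p-value could change (exact sign-flip test, p = 0.17). The number of genes called moved over 1.5-fold with only the compared groups, at day 5 (4012 to 2529), at day 15 (7537 to 3459) and for the difference of the change from day 5 to day 15 (6406 to 4028), and at day 5 without replicate 3 of HDB day 5 (2667). Depth limits CmKFB from day 25 on, where groups held 5 counts or fewer.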

Other observations

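In HDB the libraries of a group lay further apart in CmAPRR2 at days 5 and 15 than later, and in YMR the widest groups were days 5 and 35. The coefficient of variation over 3 libraries was 33.6% and 62.2% at days 5 and 15 in HDB and 6.64%, 8.67% and 2.42% at days 25, 30 and 35. In YMR it was 36.8%, 15.2%, 13.8%, 5.95% and 24.5% in the same order. Counting error alone would give 3.02% at most, in HDB at day 5, and 0.36% at least, in HDB at day 25. For CmKFB the coefficient of variation was 55.2% and 87.9% at days 5 and 15 in HDB, where counting error alone would give 20.1% and 15.0%, and 49.9% and 25.8% in YMR, where it would give 25.3% and 50.0%.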
